A study of Papio papio with 23 samples.

Results

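The Toll-like receptors TLR1 to TLR10 were followed in peripheral whole blood of baboons before and after gamma irradiation. Members were the probes whose gene name in the scanner files is one of these 10 symbols, which gave 12 of the 50599 probes and 10 of the 36337 gene names on the array. TLR4 and TLR5 have 2 probes each and the other genes 1. Of the 10 genes 9 were measured well enough to be tested, and TLR3 was not.

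Toll-like receptors are membrane proteins that bind molecules typical of microbes, and some also bind products of damaged cells. TLR1, TLR2, TLR4, TLR5, TLR6 and TLR10 act at the cell surface, while TLR3, TLR7, TLR8 and TLR9 bind nucleic acids inside endosomes. Nearly all signal through the adaptor MYD88 and kinases of the IRAK family to NF-kB and interferon regulatory factors, which switch on cytokine genes. In blood, neutrophils and monocytes carry most surface receptors and TLR8, whereas TLR7 and TLR9 are best known from B cells and plasmacytoid dendritic cells.

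The animals were adult male Papio papio with a mean age of 8.1 ± 3.3 years in the whole study. Group H0 holds 5 healthy baboons sampled before irradiation. Groups H1-2 (4 baboons, low to medium degree) and H2-3 (5 baboons, medium to severe degree) are named for the degree of the haematological acute radiation syndrome (HARS), in which irradiated bone marrow fails to replace blood cells, and each baboon was sampled on days 1 and 2. Irradiation was done under anaesthesia with gamma rays from a cobalt source, to the total body or part of it, at an equivalent whole-body dose of 2.5 or 5 Gy. The sources used here do not say which animal received which dose, or whether the H0 animals are among those irradiated. All 23 samples are whole blood, so fewer or more cells of a type and less or more RNA per cell cannot be told apart. A level is the log2 signal minus the array's 75th percentile, so 0 is the 75th percentile and 1 unit is a doubling. Adjusted p-values are from limma over all 21130 tested genes, and a gene was called when that value was under 0.05.

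On single arrays 41.4 to 51.3% of probes were well above background. All day 1 arrays were read on scan day 1 and all day 2 arrays on scan day 2. Of the H0 arrays 3 were read on scan day 1 and 2 (replicates 1 and 2) on scan day 3. Day 1 could therefore be compared with H0 within a scan day, whereas for day 2 against H0 and for day 2 against day 1 scan day and group cannot be told apart. The H0 arrays differed widely among themselves in these genes: replicate 1 was lowest of the 5 in TLR1, TLR2, TLR4, TLR6, TLR8, TLR9 and TLR10, and replicate 3 was highest in all tested members but TLR7.

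The probes are human 60-base sequences hybridised with baboon RNA, and a base that differs in the baboon can lower a probe's signal, which was not tested. The probes of TLR10, TLR1 and TLR6 lie near each other on the minus strand of chromosome 4 (hg19), at chr4:38774560-38774619, chr4:38798013-38798072 and chr4:38828533-38828592. TLR2 was measured at chr4:154626406-154626465 on the plus strand. The probes of TLR7 (chrX:12908260-12908319) and TLR8 (chrX:12940262-12940321) lie on the plus strand of chromosome X. No pair of probes from different members shared a run of more than 9 identical bases. Probes of 4 members are shown in full, each for the reason given with it. They are the probe of TLR3, which stayed near background, the probes of TLR4 and TLR5 that are paired below with another probe of the gene, and that of TLR9, which did not rise with the other receptors. They lie at chr4:187005890-187005949 (plus), chr9:120476856-120476915 (plus), chr1:223284067-223284126 (minus) and chr3:52255525-52255584 (minus), and no part is set in capitals.
TLR3 probe A_23_P29922: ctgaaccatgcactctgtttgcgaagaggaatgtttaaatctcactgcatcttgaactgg
TLR4 probe A_24_P69538: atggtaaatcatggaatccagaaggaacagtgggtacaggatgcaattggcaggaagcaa
TLR5 probe A_23_P85903: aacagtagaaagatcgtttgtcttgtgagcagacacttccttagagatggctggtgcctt
TLR9 probe A_33_P3380807: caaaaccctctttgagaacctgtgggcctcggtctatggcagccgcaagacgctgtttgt

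**Figure D1:**
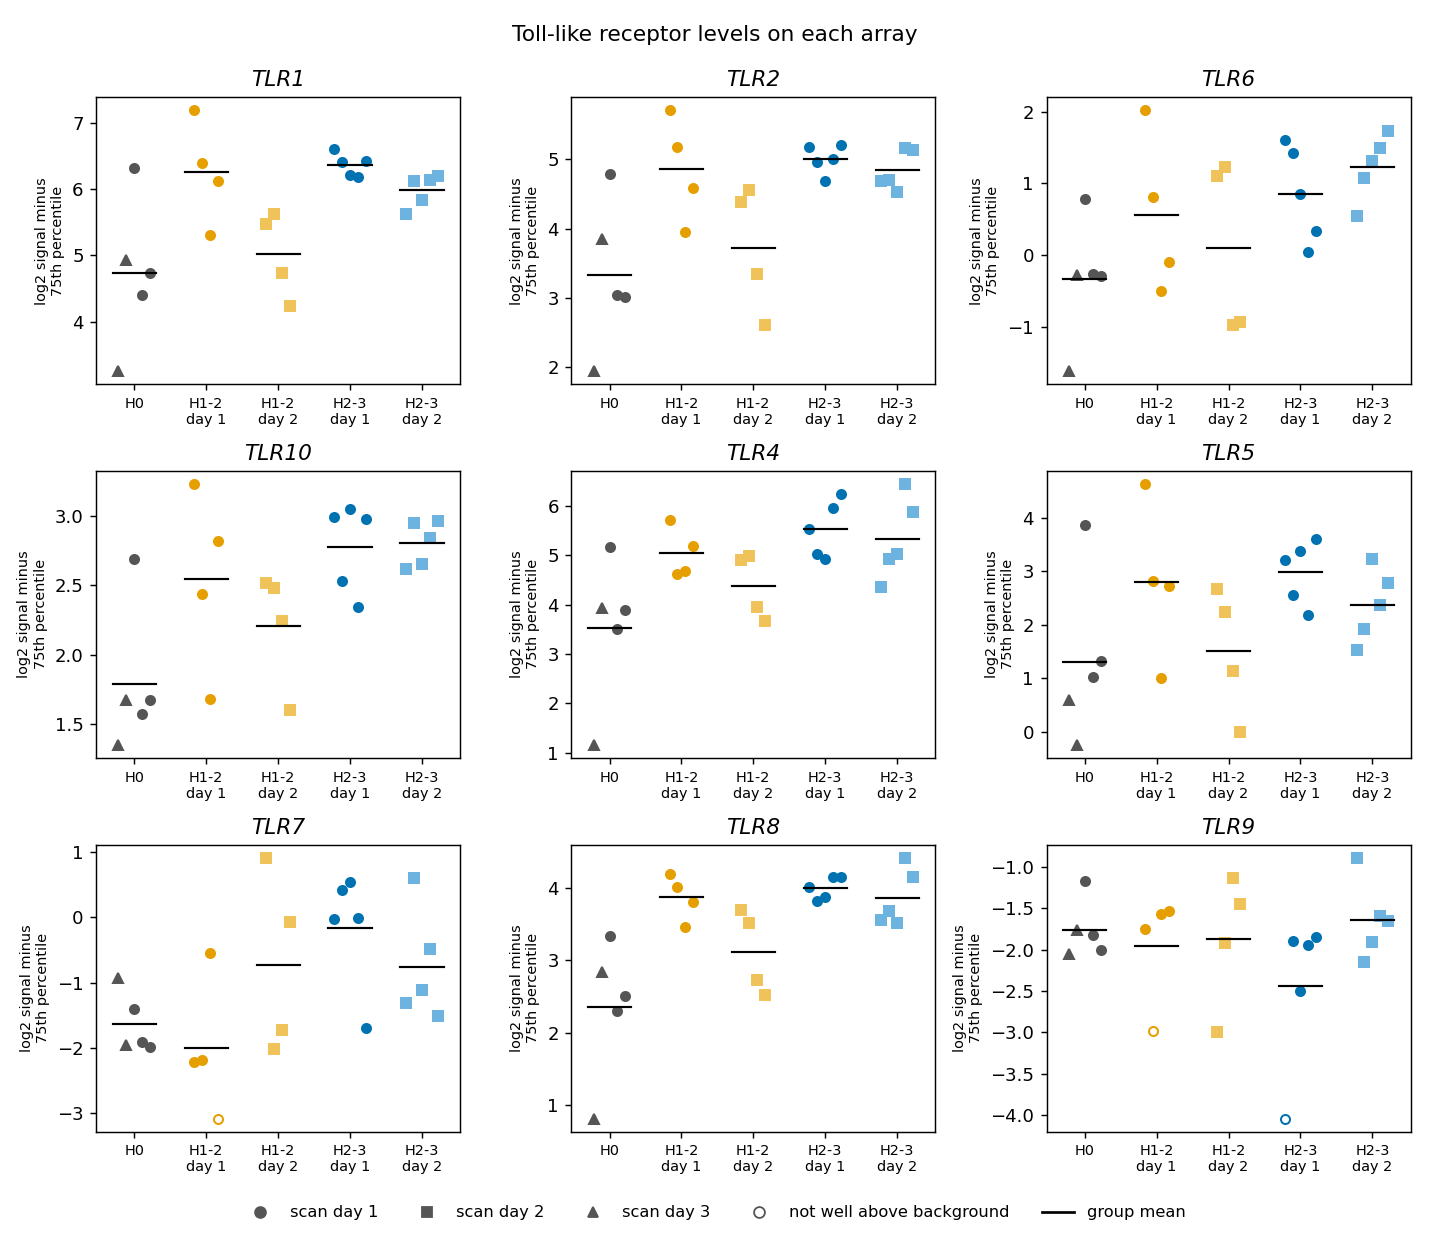
Level of each tested Toll-like receptor gene on every array (log2 signal minus the array's 75th percentile, own axis per gene), by group on the horizontal axis; each point is an array, its shape gives the scan day, open points were not well above background and bars are group means. In TLR8 all day 1 arrays of both irradiated groups lie above the highest H0 array at 3.34, while in TLR9 the groups overlap.

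Irradiated blood carried higher levels of up to 6 of 9 tested Toll-like receptor transcripts than H0 blood, depending on category and day. Against H0, 3 of 9 tested receptors rose on day 1 in H1-2 (TLR1, TLR2 and TLR8) and 6 of 9 on day 1 in H2-3 (TLR1, TLR2, TLR4, TLR7, TLR8 and TLR10). On day 2 in H2-3 6 of 9 rose (TLR1, TLR2, TLR4, TLR6, TLR8 and TLR10), and on day 2 in H1-2 0 of 9. No receptor fell in any of these comparisons. All 4 comparisons share the same H0 arrays, so their calls are not independent of each other.

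The background was 4.18% of all tested genes higher and 4.42% lower on day 1 in H1-2, 15% higher and 13.5% lower on day 1 in H2-3, and 10.3% higher and 4.48% lower on day 2 in H2-3. The median change of the 9 receptors was 1.49, 1.64 and 1.26 in these comparisons, beside medians of all genes of 0.09, 0.14 and -0.03. On day 2 in H1-2 0% of all genes passed, the receptor median was 0.42, and 2228 genes had an unadjusted p under 0.05, 1 of them a receptor (TLR8).

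**Figure D2:**
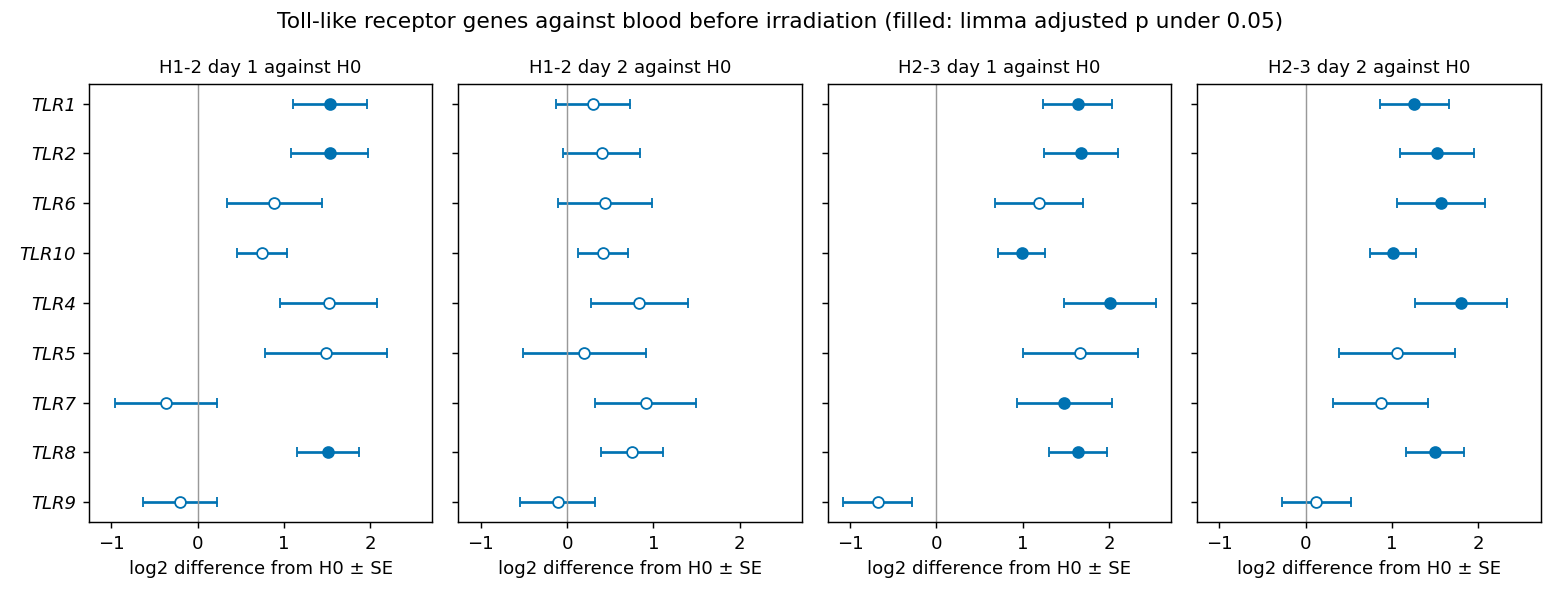
Log2 difference of each receptor from H0 (horizontal axis, ± SE from limma) in the 4 groups of irradiated samples; filled points passed an adjusted p of 0.05. TLR1, TLR2 and TLR8 are filled in 3 of the 4 panels, with changes of 1.26 to 1.68, and no point is filled for H1-2 on day 2.

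TLR2 forms dimers with TLR1 or TLR6 and recognises bacterial lipoproteins. The level of TLR2 was 1.94, 3.85, 4.79, 3.04 and 3.01 in H0. On day 1 it was 5.71, 5.18, 3.95 and 4.59 in H1-2 and 5.18, 4.97, 4.69, 5, and 5.21 in H2-3. On day 2 it was 4.38, 4.56, 3.34 and 2.61 in H1-2 and 4.69, 4.7, 4.53, 5.16 and 5.14 in H2-3. The highest H0 array lay within or above the range of every irradiated group, while the other 4 H0 arrays lay below all day 1 arrays and all H2-3 arrays of day 2. TLR2 rose 2.89-fold on day 1 in H1-2 (1.53 ± 0.45, adjusted p = 0.0392), 3.21-fold on day 1 in H2-3 (1.68 ± 0.43, adjusted p = 0.00535) and 2.87-fold on day 2 in H2-3 (1.52 ± 0.43, adjusted p = 0.0239). On day 2 in H1-2 the difference was 0.40 ± 0.45 (adjusted p = 0.753). With single arrays left out in turn TLR2 passed in 3 of 9 cases on day 1 in H1-2. In H2-3 it passed in 10 of 10 on day 1 and in 6 of 10 on day 2.

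TLR1, the partner of TLR2 for triacylated lipoproteins, had H0 levels of 3.25, 4.93, 6.32, 4.4 and 4.73. The levels on day 1 were 7.19, 6.4, 5.3 and 6.12 in H1-2 and 6.6, 6.41, 6.21, 6.18 and 6.42 in H2-3. The levels on day 2 were 5.48, 5.62, 4.74 and 4.24 in H1-2 and 5.63, 6.13, 5.84, 6.14 and 6.2 in H2-3. H2-3 arrays were tightly grouped on both days, and H1-2 fell back among the H0 values on day 2. The ranges on day 2 only just failed to overlap, with 5.62 the highest in H1-2 and 5.63 the lowest in H2-3. TLR1 rose 2.88-fold on day 1 in H1-2 (1.53 ± 0.43, adjusted p = 0.0333), 3.11-fold on day 1 in H2-3 (1.64 ± 0.40, adjusted p = 0.00456) and 2.4-fold on day 2 in H2-3 (1.26 ± 0.40, adjusted p = 0.0407). The day 2 call was lost with 3 other scalings of the arrays (1.05 to 1.11, adjusted p = 0.0525 to 0.0696). With single arrays left out in turn TLR1 passed in 3 of 9 cases on day 1 in H1-2. In H2-3 it passed in 10 of 10 on day 1 and in 3 of 10 on day 2. The SD of TLR1 was 1.1 in H0 (n = 5) and 0.17 on day 1 in H2-3 (n = 5).

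TLR6 is the partner of TLR2 for diacylated lipoproteins. Its levels were -1.62, -0.28, 0.78, -0.27 and -0.29 in H0 and 0.54, 1.08, 1.31, 1.5 and 1.73 on day 2 in H2-3, where 4 of 5 arrays lay above every H0 array. TLR6 rose 2.96-fold there (1.57 ± 0.51, adjusted p = 0.0446), a call lost with the same 3 scalings (1.41 to 1.54, adjusted p = 0.0513 to 0.0543). With each of 10 arrays left out in turn TLR6 passed there in 2 cases. On day 1 the difference was 1.19 ± 0.51 in H2-3 (adjusted p = 0.0892) and 0.89 ± 0.55 in H1-2 (adjusted p = 0.31), and H1-2 spanned -0.5 to 2.02 on that day.

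TLR10, a relative of TLR1 and TLR6 whose ligand is debated and which is expressed by B cells among others, rose by less. The level of TLR10 was 1.35, 1.67, 2.69, 1.57 and 1.67 in H0, 2.99, 2.53, 3.05, 2.34 and 2.98 on day 1 in H2-3 and 2.62, 2.95, 2.65, 2.84 and 2.96 on day 2 in H2-3. H0 replicate 3 at 2.69 stood apart from the other H0 arrays and was the only one within the H2-3 ranges. TLR10 rose 1.98-fold on day 1 (0.99 ± 0.27, adjusted p = 0.00977) and 2.02-fold on day 2 (1.01 ± 0.27, adjusted p = 0.0206) in H2-3. In H1-2 its difference was 0.75 ± 0.29 on day 1 (adjusted p = 0.0989).

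TLR4 is the receptor for bacterial lipopolysaccharide, and works with the co-receptors CD14 and LY96. At probe A_32_P66881 (chr9:120479236-120479295), which has the higher mean and stands for the gene, the H0 levels were 1.16, 3.93, 5.17, 3.5 and 3.9. The levels of TLR4 on day 1 were 5.72, 4.62, 4.68 and 5.2 in H1-2 and 5.53, 5.03, 4.92, 5.97 and 6.24 in H2-3. On day 2 they were 4.91, 4.98, 3.95 and 3.67 in H1-2 and 4.36, 4.93, 5.03, 6.45 and 5.89 in H2-3. H0 replicate 1 lay far below every other array, and H0 replicate 3 lay inside all irradiated ranges except that of H1-2 on day 2, which it topped. TLR4 rose 4.02-fold on day 1 (2.01 ± 0.53, adjusted p = 0.00732) and 3.49-fold on day 2 in H2-3 (1.80 ± 0.53, adjusted p = 0.0293). The difference on day 1 in H1-2 was 1.52 ± 0.56 and did not pass (adjusted p = 0.0877).

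The other TLR4 probe, A_24_P69538, starts 2380 bases upstream. Its levels were 1.33, 2.42, 2.77, 1.41 and 2.9 in H0, 4.45, 3.76, 3.11, 2.76 and 3.41 on day 1 in H2-3 and 3.89, 3.69, 3.58, 3.83 and 3.64 on day 2 in H2-3. All H2-3 arrays of day 2 lay above all H0 arrays at this probe, which was not so at the brighter one. With every probe tested on its own, A_24_P69538 passed on both days in H2-3, at 1.33 ± 0.46 (adjusted p = 0.0325) and 1.56 ± 0.46 (adjusted p = 0.0278).

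TLR5, the receptor for bacterial flagellin, passed in no comparison with H0. At probe A_23_P85903 the H0 levels were 0.59, -0.25, 3.87, 1.03 and 1.32, and those on day 1 were 4.64, 2.83, 1 and 2.72 in H1-2 and 3.22, 2.55, 3.38, 2.18 and 3.6 in H2-3. H0 replicate 3 was above all H2-3 arrays, and the other 4 H0 arrays were below all of them. The difference on day 1 was 1.67 ± 0.67 in H2-3 (adjusted p = 0.065) and 1.49 ± 0.71 in H1-2 (adjusted p = 0.182). With each of 10 arrays left out in turn the H2-3 difference of TLR5 on day 1 was 1.28 to 2.31, and it passed in 1 case. That case was without H0 replicate 3 (2.31, adjusted p = 0.00543), and the highest adjusted p was 0.178.

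The other TLR5 probe, A_33_P3263423 (chr1:223305827-223305886, minus), lies 21760 bases upstream on the gene's strand. Its levels spanned 0.39 to 1.12 in H0, 0.99 to 1.59 on day 1 in H2-3 and 0.35 to 1.37 on day 2 in H2-3. The changes there were 0.51 ± 0.20 on day 1 (adjusted p = 0.0643) and -0.13 ± 0.20 on day 2, beside 1.67 and 1.06 at the brighter probe. The TLR5 probes therefore agreed in sign on day 1 and differed in sign on day 2, with neither difference past the threshold.

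**Figure D3:**
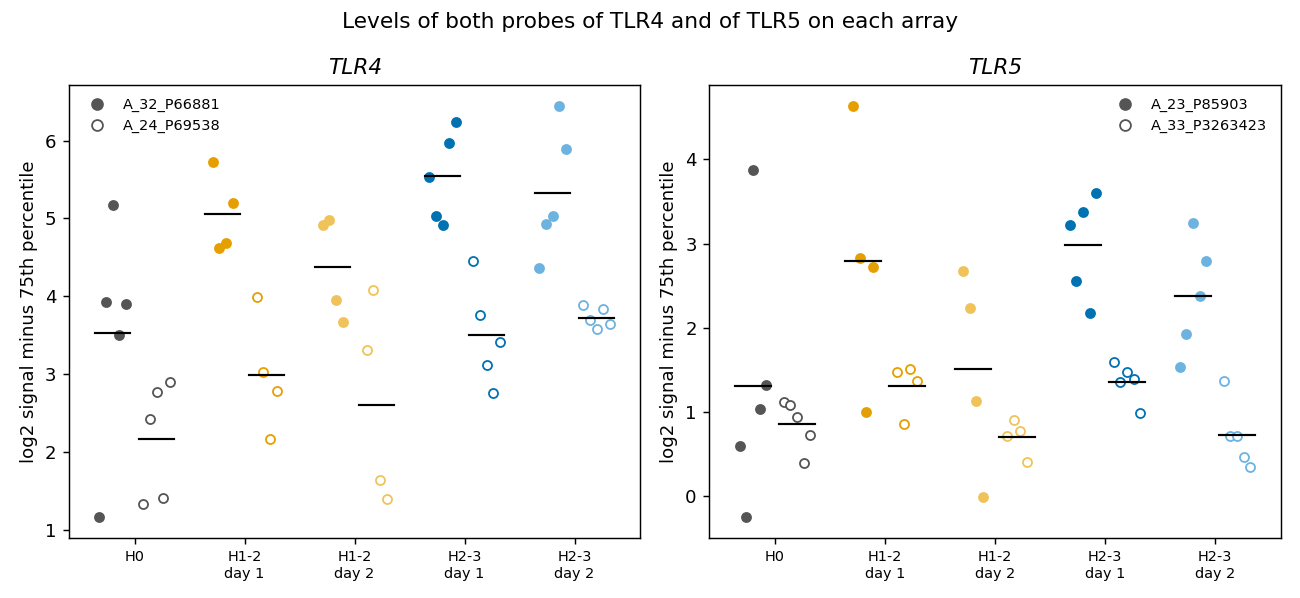
Levels at both probes of TLR4 and of TLR5 on each array (log2 signal minus the array's 75th percentile), by group; filled and open points are the 2 probes and bars are group means. Heights of different probes cannot be compared with each other, only the pattern over groups: both TLR4 probes sit higher in H2-3 than in H0, and the second TLR5 probe stays between 0.35 and 1.59.

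Among the endosomal receptors TLR8, which binds single-stranded RNA and is carried by monocytes and neutrophils, gave the clearest separation of groups. The level of TLR8 was 0.81, 2.84, 3.34, 2.3 and 2.5 in H0. On day 1 it was 4.2, 4.02, 3.46 and 3.8 in H1-2 and 4.01, 3.82, 3.88, 4.15 and 4.15 in H2-3. On day 2 it was 3.69, 3.51, 2.72 and 2.52 in H1-2 and 3.55, 3.68, 3.51, 4.42 and 4.15 in H2-3. All 4 H1-2 and all 5 H2-3 arrays of day 1 and all 5 H2-3 arrays of day 2 were above every H0 array, whereas 2 of 4 H1-2 arrays of day 2 were. The share of all tested genes that separate from H0 as fully was not counted. TLR8 rose 2.85-fold on day 1 in H1-2 (1.51 ± 0.36, adjusted p = 0.0193), 3.12-fold on day 1 in H2-3 (1.64 ± 0.34, adjusted p = 0.00126) and 2.83-fold on day 2 in H2-3 (1.5 ± 0.34, adjusted p = 0.0101). In H2-3 it passed with each of 10 arrays left out in turn, on both days, and in H1-2 on day 1 with 7 of 9.

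TLR7, the neighbour of TLR8 on chromosome X and likewise a receptor for single-stranded RNA, did not follow it. The level of TLR7 was -0.93, -1.95, -1.41, -1.91 and -1.99 in H0. On day 1 it was -2.22, -2.18, -0.55 and -3.08 in H1-2, with the last array not well above background, and -0.03, 0.42, 0.53, -0.02 and -1.7 in H2-3. On day 2 it was 0.91, -2.02, -1.73 and -0.07 in H1-2 and -1.31, 0.6, -1.11, -0.48 and -1.51 in H2-3. On day 1 4 of 5 H2-3 arrays lay above every H0 array, while 3 of 4 H1-2 arrays lay below every H0 array. TLR7 rose 2.78-fold on day 1 in H2-3 (1.48 ± 0.55, adjusted p = 0.0494), and with the baboon as a random block the adjusted p was 0.0588. With each of 10 arrays left out in turn it passed in 2 cases, and with normexp background correction its change was 0.68 (adjusted p = 0.0846). The difference on day 1 in H1-2 was -0.37 ± 0.59 (adjusted p = 0.733).

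TLR9, the receptor for unmethylated CpG DNA, showed no difference from H0 that passed. The level of TLR9 was -2.05, -1.77, -1.17, -1.82 and -2.01 in H0, and -4.04, -1.9, -2.5, -1.94 and -1.85 on day 1 in H2-3, with the lowest array not well above background. The range in H1-2 was -2.98 to -1.54 on day 1, where that lowest array was likewise not well above background, and -3 to -1.14 on day 2. The groups overlapped throughout, and the differences were -0.68 ± 0.40 on day 1 in H2-3 (adjusted p = 0.222), -0.20 ± 0.43 on day 1 in H1-2 (adjusted p = 0.809) and 0.12 ± 0.40 on day 2 in H2-3 (adjusted p = 0.844). The first of these was -0.28 without H2-3 replicate 1, the array at -4.04, -0.18 with normexp background correction and -2.03 with slide as a term, and passed in none of them.

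TLR3, the receptor for RNA duplexes, was well above background on 1 of 23 arrays, H0 replicate 5 at -2.84. On the other H0 arrays it was at -3.26, -4.42, -5.12 and -3.28, and the irradiated arrays spanned -5.69 to -3.34. These values are at background, so TLR3 has no measured change here.

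The day 1 calls were weaker within scan day 1, where 3 H0 arrays remain. Within it 1 of 9 receptors passed in H1-2 (TLR8, 1.15 ± 0.26, adjusted p = 0.0474) and 3 of 9 in H2-3 (TLR8, 1.29 ± 0.25, adjusted p = 0.00498; TLR4, 1.35 ± 0.42, adjusted p = 0.0338; TLR2, 1.4 ± 0.43, adjusted p = 0.0346). TLR1 was at 1.1 ± 0.46 in H1-2 (adjusted p = 0.147) and at 1.21 ± 0.44 in H2-3 (adjusted p = 0.0591). With scan day as a term over all arrays, 0 passed in H1-2 and 2 in H2-3 (TLR2 and TLR8). With slide as a term, where 1 H0 array shares a slide with an irradiated one, 0 passed in either group, and the change of TLR8 in H2-3 was 1.5 ± 0.79 (adjusted p = 0.261).

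Single arrays moved the counts. On day 1 in H1-2 the count of 3 became 1 without H0 replicate 1, 4 or 5 or without H1-2 replicate 4, 0 without H1-2 replicate 1 or 2, and 6 without H0 replicate 3. On day 2 in H2-3 the count of 6 became 1 without H0 replicate 1 or H2-3 replicate 4, 2 without H2-3 replicate 5, 3 without H0 replicate 5, and 0 without both H0 arrays of scan day 3, where TLR8 was at 1.14 (adjusted p = 0.0502). On day 1 in H2-3 it stayed between 5 and 7 over the 10 arrays left out in turn.

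Which receptors mark the later severity was asked by comparing H2-3 with H1-2 directly. On day 1 and on day 2 0 of 9 receptors and 0% of all 21130 genes passed with limma. An unadjusted p under 0.05 was found for 1224 genes on day 1, 1 of them a receptor, and for 2062 on day 2, 3 of them receptors. On day 1 that receptor was TLR7, with 4 of 5 H2-3 arrays above every H1-2 array and a difference of 1.84 ± 0.59 (adjusted p = 0.396). It was 0.78 with normexp background correction (adjusted p = 0.922), and 1 of the 4 H1-2 arrays was not well above background. The day 1 difference of TLR8 was 0.13 (95% interval -0.61 to 0.88), that of TLR2 0.15 (-0.79 to 1.09) and that of TLR1 0.11 (-0.78 to 1).

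On day 2 the differences between H2-3 and H1-2 did not pass after adjustment either. TLR1 was higher in H2-3 by 0.97 ± 0.43, TLR2 by 1.12 ± 0.45 and TLR8 by 0.75 ± 0.36 (adjusted p = 0.508 for each). TLR10 was higher by 0.59 ± 0.29 and TLR6 by 1.13 ± 0.55 (adjusted p = 0.508 for each). The difference was -0.04 ± 0.59 in TLR7 (adjusted p = 0.989) and 0.24 ± 0.43 in TLR9 (adjusted p = 0.881). In TLR1 and TLR10 all 5 H2-3 arrays lay above all 4 H1-2 arrays, in TLR2 4 of 5 did and in TLR8 2 of 5. In TLR1 the lowest H2-3 array was at 5.63 and the highest H1-2 array at 5.62. How many of all genes separate as fully, here or against H0, was not counted.

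From day 1 to day 2 the mean levels of TLR1, TLR2, TLR4, TLR5, TLR6, TLR8 and TLR10 were lower in H1-2 and those of TLR7 and TLR9 higher, in differences that did not pass. The titles number the baboons of a category on both days, and equal numbers are read here as the same animal. In H1-2 no day 1 array matched the day 2 array of its own number best. In TLR1 the change was -1.71, -0.78, -0.56 and -1.88 in the H1-2 baboons and -0.97, -0.28, -0.37, -0.04 and -0.23 in the H2-3 baboons. In TLR8 it was -0.51, -0.51, -0.73 and -1.28 in H1-2 and -0.46, -0.14, -0.38, 0.27 and 0 in H2-3. All 4 H1-2 baboons had lower TLR1, TLR2 and TLR8 on day 2, while in H2-3 the day 2 value was lower in 5, 4 and 4 of 5 (the change of 0 in TLR8 lies just under 0).

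The mean day change of TLR1 was -1.23 ± 0.45 in H1-2 (adjusted p = 0.154) and -0.38 ± 0.40 in H2-3 (adjusted p = 0.594), and that of TLR2 was -1.14 ± 0.48 (adjusted p = 0.177) and -0.16 ± 0.43 (adjusted p = 0.847). In TLR7 the H1-2 changes were 3.13, 0.16, -1.17 and 3.01, the last from a day 1 array not well above background, so that its size is not measured. In TLR9 the mean day change was 0.08 ± 0.45 in H1-2 (adjusted p = 0.92) and 0.81 ± 0.40 in H2-3 (adjusted p = 0.204). In H1-2 0 of 9 receptors and 0% of all genes passed, while 4957 genes, 2 of them receptors, had an unadjusted p under 0.05. In H2-3 0 of 9 receptors passed beside 2.97% of all genes (628). With the baboon as a random block 0 of 9 receptors passed in either category, beside 902 of the 21130 genes in H1-2 and 3406 in H2-3, and the adjusted p of TLR1 in H1-2 was 0.0595. The difference of the day change between the categories was 0.86 ± 0.61 for TLR1, 0.97 ± 0.64 for TLR2 and -1.88 ± 0.83 for TLR7 (adjusted p = 1 for each), and 0 of 9 receptors and 0% of all genes passed in limma, while 421 genes, 1 of them a receptor (TLR7), had an unadjusted p under 0.05.

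**Figure D4:**
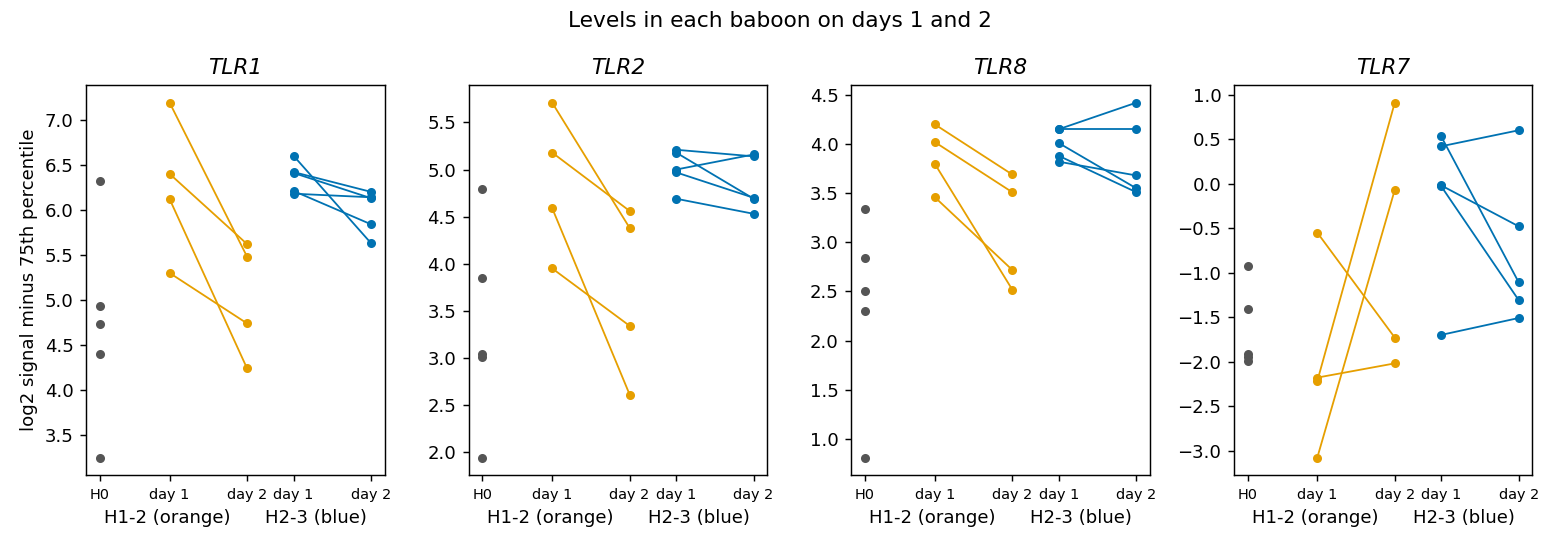
Level of TLR1, TLR2, TLR8 and TLR7 (log2 signal minus the array's 75th percentile) in H0 and on each irradiated array. Lines join days 1 and 2 of equal baboon numbers in a category, read as the same animal. Every H1-2 line falls for TLR1, TLR2 and TLR8. For TLR7 the H1-2 lines change by 3.13, 0.16, -1.17 and 3.01, the last from an array not well above background.

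By mean level the groups had the same order at both ends in TLR1, TLR2, TLR4, TLR5 and TLR8: H0 was lowest, H1-2 on day 2 came next, and H2-3 on day 1 was highest. Most neighbours in that order lay within the larger of their SDs. The step from H1-2 on day 2 to H2-3 on day 2 was larger than both groups' SDs in TLR1 (0.97, larger SD 0.65), TLR2 (1.12, larger SD 0.91) and TLR8 (0.75, larger SD 0.58). In TLR7 the order was different, with H1-2 on day 1 lowest at -2.01 ± 1.06 (SD, n = 4) and H2-3 on day 1 highest at -0.16 ± 0.90 (SD, n = 5).

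Over the 23 arrays TLR1 and TLR2 were nearest to each other among all tested genes with a symbol. Each gene's levels were centred on its own mean, and the root mean square difference of TLR1 and TLR2 was 0.207, beside an SD over arrays of 0.90 for TLR1. After TLR2, TLR1 was nearest to FAM129A (0.225) and CREB5 (0.232), and TLR2 to FCGR2A, an Fc receptor (0.237), and NAIP, an inflammasome sensor (0.243). TLR8 was nearest to RNF130 (0.148), GAB2 (0.178) and FAM49A (0.181). TLR4 was nearest to KLHL2 (0.289), WDFY3 (0.353) and RGS2 (0.354), TLR10 to CAB39 (0.242), PPP1R10 (0.261) and ATG3 (0.271), and TLR6 to NFKBIZ, an NF-kB cofactor (0.397), SLC43A2 (0.407) and SLC36A1 (0.435). TLR7 had no near gene: SEMA4B (0.817), ABAT (0.824) and DYNLRB2 (0.833) came closest, beside its own SD of 1.07. All these values come from the same 23 arrays and share each array's scaling. The probes of TLR1 and TLR2 average 10 spots each on an array, and those of the other receptors have 1. The part of this in the differences was not tested.

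Genes for proteins that help the receptors bind their ligands or reach their place in the cell also rose in part. Of 12 tested co-receptors, chaperones and trafficking genes 4 rose on day 1 in H1-2, 8 on day 1 and 6 on day 2 in H2-3, and 0 fell. Their median change was 0.55, 1.02 and 0.78, beside medians of all genes of 0.09, 0.14 and -0.03. Over all tested genes 4.18% were higher and 4.42% lower on day 1 in H1-2. In H2-3 15% were higher and 13.5% lower on day 1, and 10.3% and 4.48% on day 2. This background holds for every list below. On day 2 in H1-2 0 members of any pathway or marker list passed. CD14, which hands lipopolysaccharide to TLR4, rose in all 3 of these comparisons, by 0.82 ± 0.25 (adjusted p = 0.0453), 1.09 ± 0.24 (adjusted p = 0.00182) and 1.09 (adjusted p = 0.00898). LY96, the protein that binds lipopolysaccharide within the TLR4 complex, did not pass (0.61 ± 0.45 on day 1 in H2-3, adjusted p = 0.345).

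CD180 and its partner LY86, relatives of TLR4 and LY96 found on B cells and monocytes, rose in H2-3 by 0.94 ± 0.25 and 1.23 ± 0.21 on day 1 (adjusted p = 0.00811 and 0.000345). UNC93B1, which escorts the nucleic acid receptors to endosomes, rose by 0.66 ± 0.18 on day 1 in H1-2 (adjusted p = 0.0331) and by 0.86 ± 0.17 in H2-3 (adjusted p = 0.00105). The other 3 probes of UNC93B1 did not pass in H1-2 (0.47 to 0.57, adjusted p = 0.137 to 0.222) and passed in H2-3 (0.87 to 1.07). CNPY3, a chaperone of several receptors, rose by 1.17 ± 0.23 and LGMN, a protease that trims endosomal receptors, by 1.26 ± 0.25 on day 1 in H2-3. CD36, a co-receptor of TLR2 and TLR6, rose by 3.51 ± 0.55 there (adjusted p = 0.000164), and was well above background on 2 of 5 H0 arrays and 5 of 5 H2-3 arrays.

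The 20 tested adaptors and kinases gave 1 higher and 1 lower gene on day 1 in H1-2. This is near the background of 4.18% higher and 4.42% lower over all genes. In H2-3 they gave 7 higher and 1 lower on day 1, and 5 higher and 1 lower on day 2. The background there was 15% higher and 13.5% lower on day 1, and 10.3% and 4.48% on day 2. MYD88 itself did not pass, at 0.88 ± 0.43 on day 1 in H2-3 (adjusted p = 0.132) and 1.22 on day 2 (adjusted p = 0.0572). TRAF3, a ubiquitin ligase that directs signals towards interferon, fell by 0.92 on the log2 scale on day 1 in H1-2 (adjusted p = 0.0253), by 1.25 on day 1 in H2-3 (adjusted p = 0.000454) and by 0.82 on day 2 in H2-3 (adjusted p = 0.0221). PIK3AP1, an adaptor that links the receptors to PI3 kinase, rose by 1.18 ± 0.36, 1.61 ± 0.34 and 1.64 in the same 3 comparisons. TICAM1, the adaptor of TLR3 and TLR4 in the route independent of MYD88, rose by 0.65 ± 0.22 (adjusted p = 0.0308) and TAB3, a subunit of the TAK1 kinase complex, by 1.01 ± 0.27 (adjusted p = 0.00846) on day 1 in H2-3. Other probes of TAB3 were at 0.31 and 0.49 and that of TICAM1 at 0.57 there, without passing.

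The 16 tested inhibitors of the pathway gave 4 higher and 1 lower gene on day 1 in H1-2. In H2-3 they gave 8 higher and 2 lower on day 1, and 8 higher and 0 lower on day 2. Of all genes 4.18% were higher and 4.42% lower in the first of these comparisons. In H2-3 the shares were 15% and 13.5% on day 1, and 10.3% and 4.48% on day 2. The lower counts on day 1 are thus near the background. SIGIRR, a membrane protein that damps Toll-like receptor and interleukin 1 receptor signals, fell by 1.28 (adjusted p = 0.0244) on day 1 in H1-2 and by 1.90 (adjusted p = 0.000235) in H2-3, with -1.32 at its other probe in H2-3. The phosphatases INPP5D and PTPN6 rose by 1.01 ± 0.22 and 1.30 ± 0.26 on day 1 in H2-3 (adjusted p = 0.00212 and 0.00111). CD200R1, an inhibitory receptor of myeloid cells, rose on day 2 in H2-3 by 1.64 (adjusted p = 0.0082), with 0.07 at its other probe.

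Of 10 tested transcription factors 2 rose on day 1 in H1-2, 4 rose and 1 fell on day 1 in H2-3, and 4 rose on day 2 in H2-3. Beside them 4.18% of all genes were higher on day 1 in H1-2. In H2-3 15% were higher and 13.5% lower on day 1, and 10.3% higher on day 2. The NF-kB subunits REL and NFKB1 rose on day 1 in H1-2 by 0.95 ± 0.21 and 0.85 ± 0.21 and in H2-3 by 1.07 ± 0.20 and 1.09 ± 0.20 (adjusted p = 0.000523 and 0.000561 in H2-3). RELA rose by 0.59 ± 0.19 (adjusted p = 0.0224) and RELB fell by 0.56 (adjusted p = 0.0409) on day 1 in H2-3. Of 13 tested target genes 1 rose on day 1 in H1-2, 8 on day 1 and 3 on day 2 in H2-3, and 0 fell. IL1RN, the antagonist of interleukin 1, rose by 1.23 ± 0.38 on day 1 in H1-2 (adjusted p = 0.0466) and by 1.51 ± 0.36 in H2-3 (adjusted p = 0.00341). Its other probe did not pass in H1-2 (1.16, adjusted p = 0.053) and passed in H2-3 (1.68, adjusted p = 0.00136). TNF rose by 1.23 ± 0.28 (adjusted p = 0.00264) and CCL2, a chemokine for monocytes that was well above background on 3 of 5 arrays in both groups, by 1.15 ± 0.33 (adjusted p = 0.0122) on day 1 in H2-3. CCL3, a further chemokine, did not pass (-0.34 ± 0.31, adjusted p = 0.449). IL6, IL1A, CCL20, CXCL10 and IFNB1 were well above background on at most 3 of 23 arrays and were not tested.

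**Figure D5:**
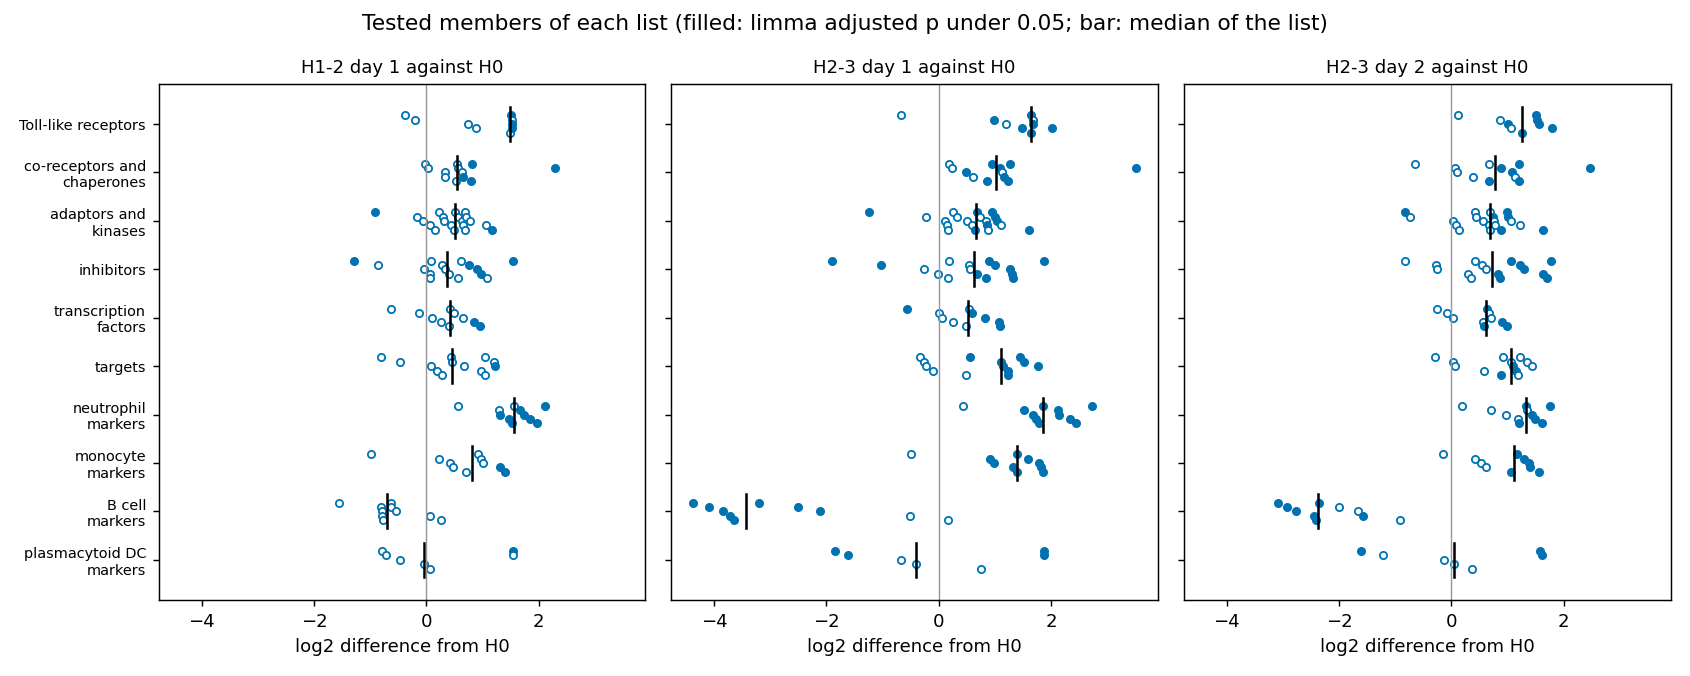
Log2 difference from H0 (horizontal axis) of every tested member of 6 pathway lists and 4 marker lists on day 1 in H1-2 and on days 1 and 2 in H2-3; filled points passed an adjusted p of 0.05 and bars are list medians. On day 1 in H2-3 the receptor median of 1.64 lies between those of the neutrophil (1.86) and monocyte markers (1.4), and the B cell markers lie at -3.43.

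Among the marker lists, those of neutrophils and monocytes held genes that rose. Of all tested genes 4.18% were higher on day 1 in H1-2, and 15% on day 1 and 10.3% on day 2 in H2-3. Of 11 tested neutrophil markers 8 rose on day 1 in H1-2 and 10 on day 1 and 6 on day 2 in H2-3, and their summed level was 8.35 to 10.6 (log2) in H0, 10.63 to 11.18 on day 1 in H1-2, 10.66 to 11.3 on day 1 in H2-3, 10.34 to 11.19 on day 2 in H2-3 and 9.4 to 10.61 on day 2 in H1-2. CXCR1 and CSF3R, receptors of mature neutrophils, rose by 2.33 ± 0.37 and 1.51 ± 0.30 on day 1 in H2-3. Of 10 tested monocyte markers 2 rose on day 1 in H1-2, 9 on day 1 and 6 on day 2 in H2-3. Their summed level was 8.83 to 9.62 in H0, 9.62 to 10.43 on day 1 and 9.17 to 10.2 on day 2 in H1-2, and 10.25 to 10.91 on day 1 and 9.91 to 10.51 on day 2 in H2-3, with CD68 up by 1.82 ± 0.32 and FCN1 by 1.59 ± 0.29 on day 1 in H2-3. No tested marker of either list was at background in a whole group, and FCGR3B and LYZ have no probe of that name. Their part in the changes of the receptors was not tested.

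B cells and plasmacytoid dendritic cells, known carriers of TLR7, TLR9 and TLR10, gave other patterns. Of 10 tested B cell markers 0 passed on day 1 in H1-2, while 8 fell on day 1 and 7 on day 2 in H2-3. BLK, a kinase of the B cell receptor pathway, fell by 4.37 on day 1 in H2-3 (adjusted p = 0.000127). CD22 and FCER2 were not well above background on any H2-3 array of day 1, and PAX5 on no array. The summed level of the B cell markers was 8.77 to 10.07 in H0, 8.4 to 9.55 on day 1 and 7.07 to 9.06 on day 2 in H2-3, and 8.61 to 9.86 on day 1 and 7.6 to 9.91 on day 2 in H1-2. By group means TLR7 and TLR10 were higher on day 1 in H2-3, where 8 of these markers fell, and TLR9 did not pass. On H2-3 replicate 5 TLR7 was at -1.7, within the H0 range. The summed B cell marker level averaged 9.05 on day 1 in H2-3 and 9.29 in H0, with overlapping ranges. Summed levels add signals on the linear scale, so the brightest markers of a list weigh most. The median change of the 10 tested B cell markers was -3.43 in that comparison. How the receptors relate to these markers was not tested.

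Of 7 tested plasmacytoid dendritic cell markers 2 rose and 2 fell on day 1 in H2-3, 1 rose on day 1 in H1-2, and 2 rose and 1 fell on day 2 in H2-3. The background on day 1 in H2-3 was 15% of all genes higher and 13.5% lower. LILRA4 rose by 1.88 ± 0.36 and TCF4 fell by 1.84 on day 1 in H2-3, and the defining markers CLEC4C and IL3RA were well above background on no array. Their summed level was 4.67 to 6.14 in H0, 6.29 to 6.56 on day 1 and 5.57 to 6.51 on day 2 in H1-2, and 6.37 to 6.91 on day 1 and 5.55 to 7 on day 2 in H2-3. Of 10 T cell markers 5 fell on day 1 in H1-2, 9 on day 1 and 1 on day 2 in H2-3, CD3G by 3.25 and UBASH3A by 2.76 on day 1 in H2-3. Of 8 NK cell markers 6, 7 and 1 fell in the same comparisons, CTSW by 3.14 and KLRD1 by 2.54 on day 1 in H2-3. The summed level on day 1 was 6.54 to 7.63 in H1-2 and 5.61 to 7.31 in H2-3 for the T cell markers, beside 8.01 to 8.96 in H0. For the NK cell markers it was 6.33 to 7.26 and 5.61 to 7.35, beside 7.43 to 9.55 in H0.

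The remaining lists held few called genes, beside 15% of all genes higher on day 1 and 10.3% higher on day 2 in H2-3. Of 8 conventional dendritic cell markers 2 rose on day 1 in H2-3, THBD by 1.93 ± 0.42 and CLEC10A by 0.72 ± 0.24, and 0 passed on day 1 in H1-2 or on day 2 in H2-3. Of 6 eosinophil and basophil markers 1 rose on each day in H2-3, SIGLEC8 by 1.42 ± 0.29 on day 1, and CCR3 was at -0.56 ± 0.33. Of 6 platelet markers 2 rose on day 2 in H2-3, ITGA2B by 1.73 and PPBP by 1.86, and the platelet median was 1.11 there and 1.19 on day 2 in H1-2. Of 6 erythroid markers 0 passed in any comparison with H0, with HBD at 0.34 ± 0.15 and SLC4A1 at -0.36 ± 0.47 on day 1 in H2-3.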

How the data were processed

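Gene expression was measured on 23 human Agilent single-colour 60K arrays, 1 per sample, from 100 ng of total RNA out of 2.5 ml of blood. The deposited scanner files give each spot's background-subtracted intensity on a linear scale, with probe positions on hg19. They were made with Agilent Feature Extraction 10.7.3.1, as the submitters' processing notes and the file headers record. A deposited table of log2 values covers 39726 probes, of which 39637 matched (correlation with the own array 0.9982 to 0.9999, every column median 4.703). No source used here states its centring or filter, so it served as an alternative.

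Processed signals were put on the log2 scale, averaged over the spots of a probe and reduced by the 75th percentile of the array's probes, controls left out. Probes well above background on at least 4 arrays were kept (27215). Where a gene had several, the one of highest mean represented it (21130 genes). A single limma fit (version 3.58.1, R 4.3.3) of 5 group means gave two-sided p-values with Benjamini-Hochberg adjustment at 0.05, and the computation was tested on simulated data. The number of arrays sets how precise the values are. Baboons are numbered within a category on both days in the labels, and equal numbers were read as the same animal. Their deviations from the group means correlated at 0.05 to 0.44, and the best match was the own number for 0 of 4 H1-2 and 4 of 5 H2-3 baboons. H0 numbers do not pair arrays (-0.33 to 0.09).

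The text names every receptor and probe, the 4 genes of each pathway list with the smallest F-test p (plus CD14, LY96, CD180, LY86, UNC93B1 and MYD88), 2 genes of each marker list (1 B cell marker that the rule names is not reported here) with those at background, and the 3 genes nearest to each called receptor. The untested target genes and the other probes of pathway genes were named after their values were seen. Members and lists were chosen with earlier results of these data known. Alternatives covered scaling, background correction, filters, probe choice, fits, blocks and arrays left out. Arrays of scan day 1 alone, and leaving out both H0 arrays of scan day 3, were chosen after seeing the data.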

Additional observations from a re-analysis of the deposited data

Results flagged for a closer look

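Each tested receptor was checked in each group of 4 or 5 arrays for an array far from the others, with Dixon's test, and 3 of 45 such groups had one. By chance about 1 in 20 would. TLR7 in H2-3 on day 1 was at -1.7 in replicate 5, and the nearest other array was at -0.03. TLR9 in H1-2 on day 1 was at -2.98 in replicate 2, not well above background, and the nearest other was at -1.75. TLR10 in H0 was at 2.69 in replicate 3, and the nearest other was at 1.67. Without that H0 array TLR10 changed by 0.98 on day 1 in H1-2 and passed (adjusted p = 0.0214). With each of 9 arrays left out in turn TLR10 passed there in 2 cases.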

How the results depend on the processing

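The counts of receptors called stayed within 1.5 times in 12 of 26 alternatives on day 1 in H1-2, 24 of 27 on day 1 in H2-3 and 18 of 24 on day 2 in H2-3. On day 1 in H1-2 the count of 3 became 1 with no filter on dim probes and with arrays of scan day 1 alone, and 0 with only the groups compared, with the replicate number as a fixed block, with slide or scan day as a fixed block, and without both H0 arrays of scan day 3. On day 1 in H2-3 the count of 6 became 0 with slide and 2 with scan day as a fixed block, and 3 with arrays of scan day 1 alone. On day 2 in H2-3 the count of 6 became 3 with only the groups compared and 0 without both H0 arrays of scan day 3. With single arrays left out the counts ranged from 0 to 6 on day 1 in H1-2, 5 to 7 on day 1 in H2-3 and 1 to 7 on day 2 in H2-3. The causes of these shifts were not tested. Leaving an array out changes both the number of arrays and which arrays remain. The other 6 comparisons stayed at 0 under all alternatives run. The baboon as a random replicate block (correlation 0.252) ended the call of TLR7 on day 1 in H2-3 (1.48, adjusted p = 0.0588) and moved no count of receptors called by over 1.5 times, but raised the count over all genes for day 2 against day 1 from 0 to 902 in H1-2 and from 628 to 3406 in H2-3. No called value changed sign. Among 36 differences from H0, 1 turned sign under another scaling, that of TLR9. Signal near background limits TLR3, TLR7 and TLR9.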
